A study of Mus musculus with 14 samples.

Results

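The genes described here are 9 members of the matrix metalloproteinase (MMP) system that the ovary libraries of this series measured: 6 metalloproteinases (Mmp2, Mmp9, Mmp11, Mmp14, Mmp19 and Mmp23) and 3 tissue inhibitors of metalloproteinases (Timp1, Timp2 and Timp3). They were taken by symbol from a table of 56748 genes, in which each symbol occurs once, and all 9 passed the low-value filter that left 18006 genes for testing. The tissue was ovary, from wild-type C57BL/6J females, and the 14 libraries form 4 groups: 3 controls and 4 libraries of mice given dextran sulfate sodium (DSS) at day 7, and 3 controls and 4 DSS libraries at day 89. DSS is a polysaccharide that injures the colon epithelium and is used to model colitis; the design text places the first time at the end of the modelling and the second after a rest. No age, dose or stage of the ovarian cycle was in the labels used here, nothing there says that each library is a separate animal, and p-values then measure the spread between these libraries.

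MMPs are zinc-dependent proteases that cut collagens, laminins, fibronectin and proteoglycans outside the cell; most are made as inactive precursors and are switched on when a propeptide is removed. TIMPs bind the active site of these enzymes, so the balance of proteases and inhibitors sets how much matrix is broken down. In the ovary the matrix is rebuilt in every cycle, during follicle growth, rupture of the follicle wall at ovulation, and the formation and regression of the corpus luteum, and both families have long been studied there.

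Values are FPKM, fragments per kilobase of gene scaled to the size of the library, a length-corrected level, so levels of different genes can be set side by side. The libraries held 15256018 to 18505144 reads, recovered from the FPKM steps. The fewest reads behind any value of a member were 40 (Mmp19), 42 (Mmp9), 143 (Mmp2) and 190 (Timp3), while Mmp14 reached 17341. Granulosa, luteal and oocyte markers were present in every library. The extraction protocol speaks of retinas although the tissue label is ovary, and the summed retina markers were at 3.597 to 7.47 FPKM. In 3 day 7 libraries (control 10, control 53 and DSS 75) mitochondrial transcripts took 9.96% to 14.2% of reads, against 0.479% to 4.04% in the other 11. The day 7 and day 89 libraries also differed in a length measure, the mean centred log2 level of short genes minus that of long genes (lowest and highest quartile of length): it was 0.119 to 0.418 at day 7 and -0.381 to -0.240 at day 89, except for 0.107 in DSS R38. Such a difference and the day itself cannot be told apart, and a fit with the length trend removed is therefore given beside each member called between the days. For the other genes named below it is not given, so their day differences carry this limit. With the length trend removed 4903 genes were called by day in controls and 3110 in DSS mice, beside 5732 and 3860 in the reported fit.

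On GRCm38, in GENCODE M21 positions, 3 of the genes (Mmp11, Mmp19 and Timp3) lie on chromosome 10, far apart, and each of the others on a chromosome of its own. Mmp2 is at chr8:92827291-92853420 on the plus strand, Mmp9 at chr2:164940780-164955850 (plus), Mmp11 at chr10:75923222-75936496 (minus), Mmp14 at chr14:54431612-54445364 (plus), Mmp19 at chr10:128790910-128800824 (plus) and Mmp23 at chr4:155650655-155653384 (minus). Timp1 is at chrX:20870166-20874735 (plus), Timp2 at chr11:118301069-118355740 (minus) and Timp3 at chr10:86300372-86349506 (plus). All 9 are annotated as protein-coding, and these positions are gene spans, exons and introns together. No source used here says whether reads were assigned by strand, and several spans hold another gene. Exons of Mmp19 share 789 bases with Tmem198b on the opposite strand, those of Timp3 share 1733 bases with Syn3, and those of Mmp11 share 155 bases with Chchd10, so reads from these stretches cannot be told apart. Over the 14 libraries Syn3 lay at 0.0413 to 0.203 FPKM, far under Timp3, Tmem198b at 0.640 to 4.14 FPKM and Chchd10 at 18.9 to 255 FPKM. Timp1 lies within Syn1 without shared exon bases.

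Promoter windows (250 bases before and 50 after the transcription start, RefSeq, GRCm38.p6) were found for 6 of the 9: Mmp11, Mmp14, Mmp23, Timp1, Timp2 and Timp3. Mmp2, Mmp9 and Mmp19 are named only. The 80 bases just upstream of the annotated starts are shown for 4 of these, a pair of protease genes (Mmp14 and Mmp23) and a pair of inhibitor genes (Timp1 and Timp3). Mmp14 and Mmp23 were called lower at day 89 than at day 7 in DSS mice, though not in every setting. For Mmp11 and Timp2 the GENCODE start lies 3994 and 329 bases upstream of the RefSeq start, and no stretch is printed. Capitals mark the GC box, the letters GGGCGG on either strand (CCGCCC on the printed strand is the same box on the other strand), which is the core of the site bound by Sp1-type factors; neighbouring boxes may overlap.
Mmp14: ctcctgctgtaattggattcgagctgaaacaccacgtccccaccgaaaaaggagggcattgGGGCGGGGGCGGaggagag
Mmp23: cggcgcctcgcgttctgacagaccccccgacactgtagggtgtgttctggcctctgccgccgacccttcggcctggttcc
Timp1: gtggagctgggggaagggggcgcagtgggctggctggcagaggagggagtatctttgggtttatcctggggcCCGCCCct
Timp3: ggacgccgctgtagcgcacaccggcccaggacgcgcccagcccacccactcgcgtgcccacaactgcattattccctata
The stretches lie at chr14:54431518-54431597 (Mmp14, plus strand), chr4:155653385-155653464 (Mmp23, minus strand), chrX:20870086-20870165 (Timp1, plus strand) and chr10:86300292-86300371 (Timp3, plus strand). Mmp14 carried 2 boxes in its printed stretch and Timp1 carried 1; the stretches of Mmp23 and Timp3 held none. Over the full 300 bases, 5 of the 6 members had at least 1 box, Mmp11 with 4, Timp3 with 2 and Mmp23 with 0, and 35.7% of all 32851 windows in the table had one; 22.1% of all 80-base upstream stretches had one. Mmp23 has 2 RefSeq starts, and only the window of the start nearest its GENCODE start was searched. A match is a description of letters, and these data hold no measurement of binding.

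In these ovaries the most abundant members were Timp1, Mmp11, Timp2 and Mmp14, with means over the 14 libraries of 169, 125, 93.4 and 81.7 FPKM. Mmp23 and Mmp2 followed at 27.0 and 22.3 FPKM, and Timp3, Mmp19 and Mmp9 were lowest, at 9.51, 3.68 and 1.71 FPKM. The 4 groups ordered differently for different genes, as the plot of single libraries shows. Between the days Mmp2, Timp3 and Mmp19 rose in both treatments. Between DSS and control, no member passed the test at either day.

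**Figure D1:**
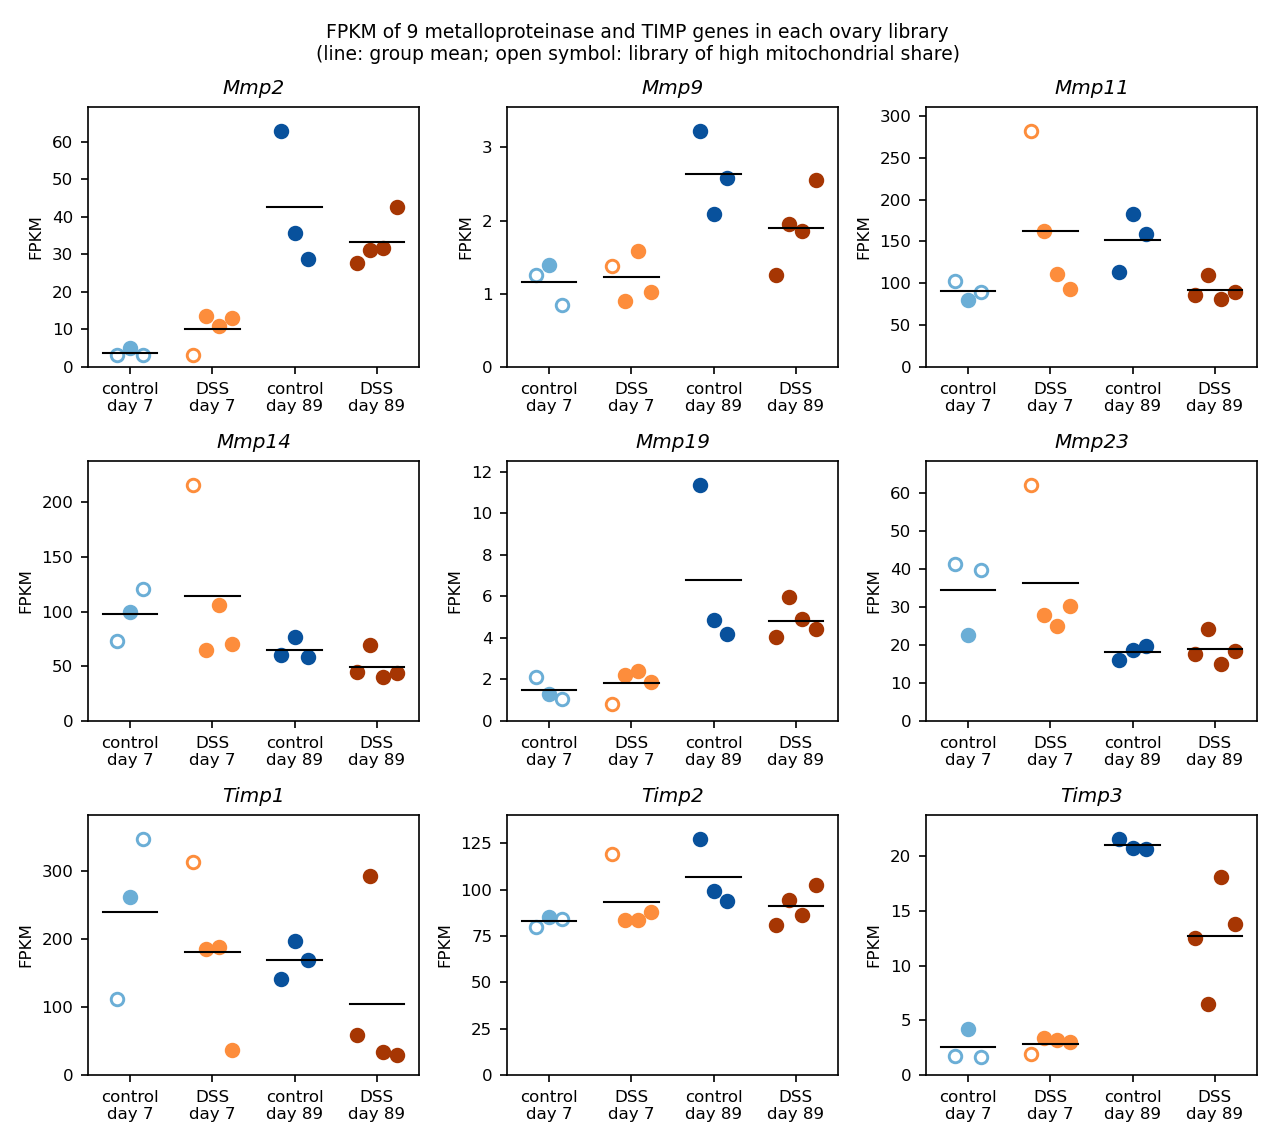
FPKM (linear axis from 0) of the 9 genes in each of the 14 libraries, grouped by treatment and day; each point is a library, the line is the group mean, and open points are the 3 libraries of high mitochondrial share. Mmp2, Mmp19 and Timp3 are higher in every day 89 library than in any day 7 library, and DSS 75 is the highest of all libraries for Mmp11, Mmp14 and Mmp23.

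The comparison of day 89 with day 7 asked how the genes differ between the end of the modelling and the late time, first in controls. Mmp2, Timp3, Mmp19 and Mmp9 rose and Mmp23 fell, 5 of 9 members, where 31.8% of all genes tested passed the same limma test (16.1% higher and 15.7% lower). The groups did not overlap for 6 members that were higher and 1 that was lower, beside 45% of all genes tested (22.8% higher and 22.2% lower). In DSS mice Mmp2, Timp3 and Mmp19 rose and Mmp14 and Mmp23 fell, again 5 of 9, against 21.4% of all genes tested (10.7% higher and 10.7% lower). There the groups did not overlap for 3 higher members and 1 lower one, beside 24.8% of all genes tested (12.2% higher and 12.7% lower). The day 89 and day 7 groups share no library between the treatments.

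Mmp2 (gelatinase A), a secreted protease that cuts denatured collagen and type IV collagen of basement membranes, had the largest difference of the members in controls. Its level at day 7 was 3.14, 5.02 and 3.24 FPKM in controls 10, 51 and 53, and 3.15, 13.5, 10.9 and 13.0 FPKM in DSS 75, 80, 81 and 82. At day 89 it was 62.9, 35.7 and 28.8 FPKM in controls R123, R124 and R126, and 27.8, 31.2, 31.8 and 42.6 FPKM in DSS R29, R38, R78 and R89. Every day 89 library was above every day 7 library, and control R123 was the highest of the 14. In controls the mean went from 3.80 ± 1.06 (SD, n = 3) to 42.5 ± 18.0 (SD, n = 3) FPKM, a difference of 3.12 (SE 0.41) on the log2(FPKM + 1) scale, adjusted p = 0.000382. In DSS mice it went from 10.1 ± 4.80 (SD, n = 4) to 33.3 ± 6.42 (SD, n = 4) FPKM, a difference of 1.76 (SE 0.35), adjusted p = 0.00548. The order of group means was control day 7, DSS day 7, DSS day 89 and control day 89; the first pair of neighbours (adjusted p = 0.202) and the last (adjusted p = 0.949) did not pass, and the step between DSS groups did. Mmp2 passed in both treatments under all 23 other settings, with differences of 2.36 to 3.43 in controls and 1.34 to 1.94 in DSS mice; with the length trend removed they were 3.17 and 1.80.

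Mmp9 (gelatinase B), the gelatinase best known from neutrophils and macrophages, was the scarcest member. At day 7 it stood at 1.26, 1.39 and 0.851 FPKM in controls and 1.38, 0.903, 1.58 and 1.02 FPKM in DSS mice, and at day 89 at 3.23, 2.09 and 2.59 FPKM in controls and 1.25, 1.95, 1.85 and 2.56 FPKM in DSS mice. The control groups of the days did not overlap, while DSS R29 lay among the day 7 values. In controls it rose from 1.17 ± 0.28 to 2.63 ± 0.57 FPKM (SD, n = 3 each), by 0.74 (SE 0.19), adjusted p = 0.0114. In DSS mice the difference was 0.38 (SE 0.17), adjusted p = 0.122. With the length trend removed the difference in controls was 0.76 (adjusted p = 0.0112). The call in controls was lost without the 3 libraries of high mitochondrial share (0.59, adjusted p = 0.166), which leaves control 51 as the only day 7 control, assumed to vary like the libraries of the other groups. It was also lost without control 53 (0.63, adjusted p = 0.0540), without control R123 (0.63, adjusted p = 0.0511) and with a term for the mitochondrial class (0.72, adjusted p = 0.0527).

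Mmp19, a secreted MMP also known from ovarian follicles, stood at 2.13, 1.29 and 1.04 FPKM in day 7 controls and at 0.840, 2.23, 2.41 and 1.87 FPKM in day 7 DSS mice. The day 89 values were 11.4, 4.87 and 4.16 FPKM in controls and 4.04, 5.97, 4.90 and 4.40 FPKM in DSS mice. No day 89 value overlapped a day 7 value, and control R123 was again highest. It rose in controls from 1.48 ± 0.57 to 6.80 ± 3.97 FPKM (SD, n = 3 each), by 1.56 (SE 0.31), adjusted p = 0.00266, and in DSS mice from 1.84 ± 0.70 to 4.83 ± 0.84 FPKM (SD, n = 4 each), by 1.07 (SE 0.27), adjusted p = 0.0152. With the length trend removed the differences were 1.59 and 1.09. Without both DSS 75 and DSS R38, a setting chosen after seeing the data, the difference in DSS mice was 0.78 with adjusted p = 0.0631. Tmem198b, the opposite-strand gene that shares exon bases with Mmp19, moved with it: its mean was 1.09 ± 0.44 and 3.99 ± 0.21 FPKM in controls at day 7 and day 89 (SD, n = 3 each), and 1.27 ± 0.30 and 3.32 ± 0.25 FPKM in DSS mice (SD, n = 4 each). How much of the Mmp19 value comes from Tmem198b reads was not tested.

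Timp3, the inhibitor that is held in the matrix and also blocks ADAM17 and several ADAMTS proteases, had the smallest adjusted p of the members in both treatments. Its day 7 values were 1.75, 4.20 and 1.67 FPKM in controls and 1.88, 3.35, 3.24 and 3.06 FPKM in DSS mice. Its day 89 values were 21.6, 20.7 and 20.7 FPKM in controls and 12.6, 6.48, 18.1 and 13.8 FPKM in DSS mice. The day 89 controls lay close together, and DSS R38 was the lowest day 89 library yet above all day 7 libraries. The rise in controls, from 2.54 ± 1.44 to 21.01 ± 0.54 FPKM (SD, n = 3 each), was 2.71 (SE 0.31), adjusted p = 0.000257. The rise in DSS mice, from 2.88 ± 0.68 to 12.7 ± 4.81 FPKM (SD, n = 4 each), was 1.76 (SE 0.27), adjusted p = 0.00182. Timp3 is the longest member in the table (8144 bases), and with the length trend removed the differences were 2.43 and 1.58. It passed in both treatments under all 23 other settings.

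Mmp14 (MT1-MMP), a membrane-anchored protease that activates pro-MMP2 on the cell surface with TIMP2 as the bridge, was 73.5, 99.3 and 121 FPKM in day 7 controls and 216, 64.7, 106 and 70.1 FPKM in day 7 DSS mice. At day 89 it was 60.4, 77.0 and 58.2 FPKM in controls and 44.7, 69.4, 40.2 and 44.2 FPKM in DSS mice. DSS 75 stood at more than any other library, and DSS R38 overlapped the day 7 DSS values. In DSS mice Mmp14 fell from 114 ± 70.3 to 49.6 ± 13.4 FPKM (SD, n = 4 each), with a log2 difference of -1.04 (SE 0.32), adjusted p = 0.0337. In controls the difference was -0.56 (SE 0.37), adjusted p = 0.260. With the length trend removed the difference in DSS mice was -1.16 (adjusted p = 0.0310). The call in DSS mice held in 14 of 23 other settings and was lost without DSS 75 (-0.68, adjusted p = 0.0646).

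Mmp23, a membrane-linked MMP expressed mainly in reproductive tissues, was 41.3, 22.6 and 39.8 FPKM in day 7 controls and 62.1, 27.8, 25.1 and 30.2 FPKM in day 7 DSS mice. At day 89 the values were 15.9, 18.5 and 19.8 FPKM in controls and 17.7, 24.2, 15.1 and 18.4 FPKM in DSS mice. Among the day 7 libraries the 3 of high mitochondrial share were the highest 3. It fell in controls from 34.5 ± 10.4 to 18.1 ± 1.96 FPKM (SD, n = 3 each; -0.85, SE 0.30, adjusted p = 0.0461) and in DSS mice from 36.3 ± 17.3 to 18.8 ± 3.84 FPKM (SD, n = 4 each; -0.83, SE 0.26, adjusted p = 0.0385). The call in controls held in 9 of 23 other settings; with a term for the mitochondrial class the difference was -0.20 (adjusted p = 0.511), and without those 3 libraries, with control 51 as the only day 7 control, -0.31 (adjusted p = 0.379). With the length trend removed neither call held: the difference was -0.66 (adjusted p = 0.0966) in controls and -0.70 (adjusted p = 0.0651) in DSS mice. The call in DSS mice held in 14 of 23 and was lost without DSS 75 (-0.55, adjusted p = 0.0847).

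Mmp11 (stromelysin-3), an MMP that furin activates inside the cell and that cuts classical matrix proteins poorly, did not pass in either treatment. It was 103, 79.6 and 89.96 FPKM in day 7 controls, 282, 163, 111 and 93.4 FPKM in day 7 DSS mice, 114, 183 and 159 FPKM in day 89 controls and 86.0, 109, 81.3 and 90.1 FPKM in day 89 DSS mice. The day difference was 0.72 (SE 0.32; adjusted p = 0.103) in controls and -0.69 (SE 0.28; adjusted p = 0.0901) in DSS mice. In controls it passed without DSS 75, which entered only through the shared spread (0.72, adjusted p = 0.0241), and with the term for the mitochondrial class (1.24, adjusted p = 0.0174). In DSS mice it passed without DSS 82 (-0.91, adjusted p = 0.0356).

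Timp1, a secreted inhibitor of most soluble MMPs whose expression in the ovary is induced by the ovulatory hormone surge, had the largest SE of the members. It was 112, 261 and 347 FPKM in day 7 controls and 313, 185, 187 and 36.5 FPKM in day 7 DSS mice, and 140, 196 and 169 FPKM in day 89 controls and 58.8, 291, 34.3 and 29.8 FPKM in day 89 DSS mice. The day difference was -0.37 (SE 0.82; adjusted p = 0.756) in controls and -1.11 (SE 0.71; adjusted p = 0.272) in DSS mice. Without DSS R38 the latter was -1.82 and passed (adjusted p = 0.0391). With the length trend removed the Timp1 day differences were -0.05 in controls and -0.89 in DSS mice, and neither passed. Timp2, which blocks MMP2 and also takes part in its activation, was the steadiest member, between 79.8 and 128 FPKM in all 14 libraries. Its day difference was 0.35 (SE 0.17; adjusted p = 0.130) in controls and -0.03 (SE 0.15; adjusted p = 0.901) in DSS mice.

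**Figure D2:**
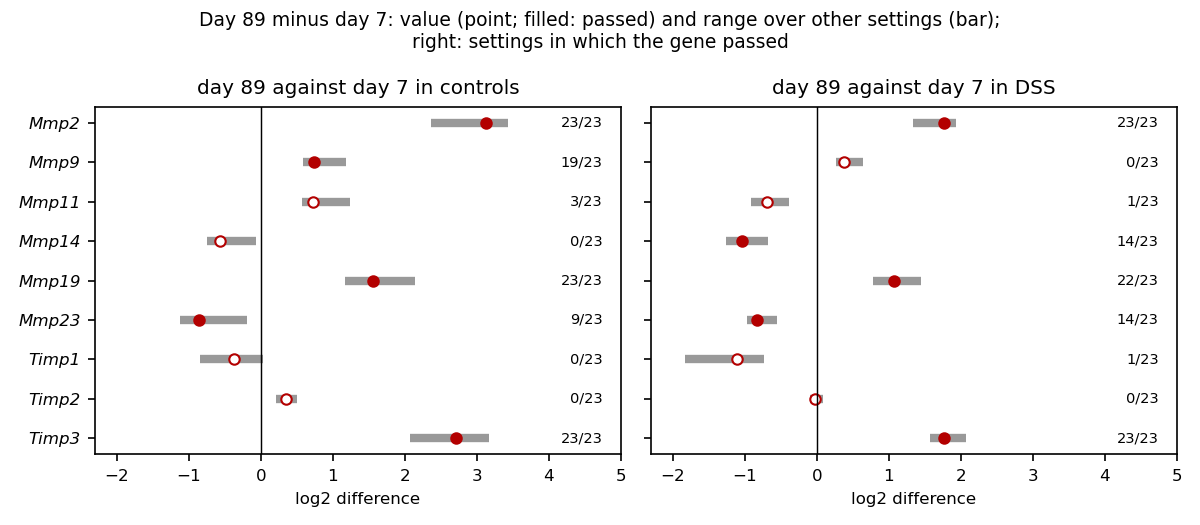
Day 89 minus day 7 on the log2(FPKM + 1) scale for each gene, in controls (left) and DSS mice (right); points are the reported differences (filled where the limma adjusted p passed), bars span the values over the 23 other settings, and the numbers at the right count the settings in which the gene passed. Mmp2 and Timp3 passed in 23 of 23 settings in both panels and Mmp23 in 9 of 23 in controls.

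Markers of other cells also differed between the days. The summed level of 7 fibroblast and stroma markers was 230 to 383 FPKM in the day 7 libraries and 449 to 977 FPKM in the day 89 libraries, and that of 5 endothelium markers was 36.0 to 49.95 and 56.4 to 81.5 FPKM; none of these markers was at 0 throughout a group. The sum of the fibroblast and stroma markers was highest in control R123, the library with the most Mmp2 and Mmp19. Not every marker of that list went with the sum. Tcf21 was 17.8 to 40.2 FPKM at day 7 and 23.6 to 39.4 FPKM at day 89, and R123 held its lowest day 89 value. The 5 smooth muscle markers summed to 248 to 399 FPKM at day 7 and 299 to 450 FPKM at day 89. The 7 luteal markers summed to 1956 to 3457 FPKM at day 7 and 3420 to 5828 FPKM at day 89, and the 8 oocyte markers to 112 to 410 and 30.7 to 156 FPKM. The days overlapped for some single markers of the endothelium and luteal lists. Pecam1, of the endothelium list, was 7.09 to 13.9 FPKM at day 7 and 8.81 to 18.2 FPKM at day 89. Of the luteal list, Star was 33.5 to 234 and 64.8 to 316 FPKM, and Lhcgr was 5.91 to 38.9 and 23.9 to 144 FPKM. The 10 macrophage markers, Mmp12 among them, summed to 251 to 323 FPKM in day 7 controls and 345 to 641 FPKM in day 89 controls, and to 443 to 601 and 528 to 1031 FPKM in DSS mice. The 6 oviduct and surface epithelium markers summed to 20.7 to 28.6 and 2.54 to 14.5 FPKM in controls and to 10.4 to 20.5 and 1.82 to 7.92 FPKM in DSS mice. The part of all these cells in the member differences was not tested, and in whole ovaries fewer cells of a type and less RNA per cell cannot be told apart.

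DSS and control mice were compared at day 7 to ask what differed at the end of the modelling. None of the 9 members passed, where 0.0333% of all genes tested (6 of 18006) did, 0.0278% lower; 2 members, Mmp2 and Mmp11, had an unadjusted limma p under 0.05, as did 2889 of all genes. No member's groups were free of overlap, beside 12.1% of all genes tested (6.24% higher and 5.87% lower). Mmp2 was 2.67-fold higher on average, 10.1 ± 4.80 (SD, n = 4) against 3.80 ± 1.06 (SD, n = 3) FPKM, a log2 difference of 1.08 (SE 0.38), adjusted p = 0.202. DSS 80, 81 and 82 were all at 10.9 FPKM or more and every control was at or under 5.02 FPKM, while DSS 75 lay with the controls at 3.15 FPKM. Without DSS 75 the difference was 1.51 (SE 0.25) and passed with adjusted p = 0.00971, as did 1221 of the genes tested in that setting; over all other settings the adjusted p ranged from 0.00797 to 0.434. DSS 75 shares its high mitochondrial share with controls 10 and 53: among those 3 libraries the difference in Mmp2 was -0.01, and among the other 4 (3 DSS against control 51) it was 1.16. Without all 3 the difference was 1.16, adjusted p = 0.0819.

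Mmp11 at day 7 was 162 ± 85.1 FPKM in DSS mice (SD, n = 4) and 90.7 ± 11.5 FPKM in controls (SD, n = 3), with a log2 difference of 0.71 (SE 0.30), adjusted p = 0.275. DSS 75, 80 and 81 stood above all controls and DSS 82 among them. Chchd10, which shares exon bases with Mmp11, was 139 ± 79.1 FPKM in DSS mice (SD, n = 4) and 78.7 ± 54.0 FPKM in controls (SD, n = 3) at day 7; its part in the Mmp11 value was not tested. Timp1 differed by -0.61 (SE 0.76), adjusted p = 0.732. The other 6 members (Mmp9, Mmp14, Mmp19, Mmp23, Timp2 and Timp3) differed by 0.02 to 0.19, with adjusted p of 0.665 to 0.982. The intervals of those differences were wide for Mmp14 (-0.60 to 0.75) and narrower for Mmp9 (-0.32 to 0.39) and Timp2 (-0.15 to 0.47), taken as the difference ± 1.96 SE. Within the libraries of high mitochondrial share Mmp14 was 1.19 higher in DSS 75 than in the 2 controls, and among the others it was -0.34; Timp1 gave 0.66 and -1.26.

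The summed level of 10 neutrophil markers was higher with DSS at day 7. It was 1.81 to 3.68 FPKM in controls, with Retnlg and Cxcr2 at 0, and 133, 19.9, 19.3 and 13.2 FPKM in DSS 75, 80, 81 and 82. Most of the DSS sums lay in S100a8, S100a9 and Retnlg. In the same order of libraries S100a8 was 41.4, 6.91, 5.79 and 4.24 FPKM. S100a9 was 63.9, 7.81, 8.40 and 6.54 FPKM, and Retnlg was 22.4, 3.16, 2.14 and 0.443 FPKM. The other genes of the list added little, so the sum does not show that they rose. The 10 macrophage markers summed to 251 to 323 FPKM in controls and 443 to 601 FPKM in DSS mice. Mmp9, a protease that both cells can make, was 1.17 ± 0.28 and 1.22 ± 0.31 FPKM in the 2 groups, and DSS 75, with the most neutrophil marker signal, held 1.38 FPKM. The part of these cells in the member values, Mmp9 among them, was not tested.

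At day 89 the comparison asked what remained after the rest. None of the 9 members passed, where 0.00555% of all genes tested (1 of 18006) did; Timp3 and Mmp11 had an unadjusted limma p under 0.05, as did 824 of all genes. The groups did not overlap for 2 of 9 members, both lower in DSS mice, beside 8.29% of all genes tested (4.25% lower). Of the 9 differences 8 lay below 0, and their median was -0.33, against 0.004 for all genes tested; the members share the libraries, so these are not separate observations. Timp3 was 12.7 ± 4.81 FPKM in DSS mice (SD, n = 4) against 21.01 ± 0.54 FPKM in controls (SD, n = 3), a log2 difference of -0.76 (SE 0.29), limma adjusted p = 0.924. Mmp11 was 91.7 ± 12.4 against 152 ± 35.2 FPKM, a difference of -0.71 (SE 0.30), limma adjusted p = 0.924. All 4 DSS libraries lay below all 3 controls for both genes, by a small margin for Mmp11 (109 in DSS R38 against 114 in control R123).

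Timp1 had the largest difference at day 89, -1.35 (SE 0.76), with adjusted p = 0.924. DSS R29, R78 and R89 were at 29.8 to 58.8 FPKM and every control was at 140 FPKM or more, but DSS R38 stood at 291 FPKM, above all controls. Without DSS R38 the difference was -2.06 (adjusted p = 1, and 0.629 to 1 over all other settings) and did not pass either. Mmp14 (-0.41), Mmp9 (-0.33), Mmp19 (-0.32), Mmp2 (-0.28) and Timp2 (-0.22) differed by less than 2 SE each, and Mmp23 differed by 0.04 (SE 0.28). Their adjusted p lay between 0.924 and 0.998. The fibroblast and stroma markers, which summed to 504 to 977 FPKM in controls, summed to 449 to 681 FPKM in DSS mice; their part in the differences was not tested.

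**Figure D3:**
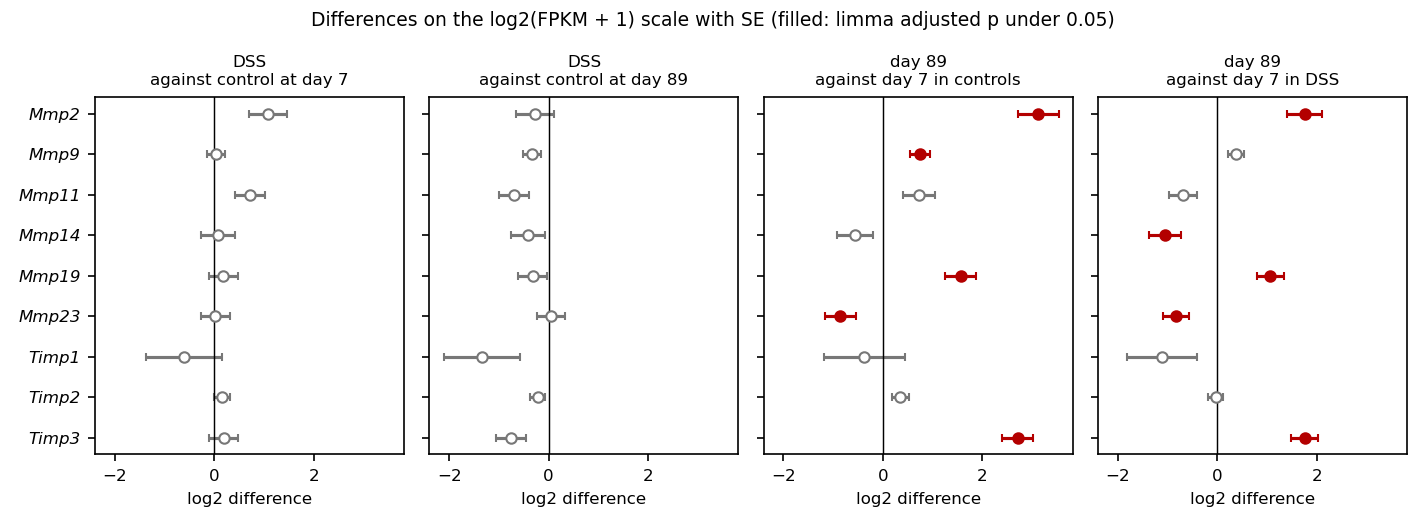
Log2 differences of the 9 genes (points, on the log2(FPKM + 1) scale) with 1 SE on each side, for DSS against control at each day and for day 89 against day 7 in each treatment; filled points passed (limma adjusted p under 0.05). Neither DSS panel has a filled point, and each day panel has 5.

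Whether the DSS difference itself changed between the days was tested as an interaction. No member passed, and neither did any of the 18006 genes (0%), with 3 members (Mmp11, Mmp2 and Timp3) and 1521 of all genes at an unadjusted limma p under 0.05. For Mmp11 the difference was 0.71 at day 7 and -0.71 at day 89, an interaction of -1.41 (SE 0.43), limma adjusted p = 0.517. For Mmp2 it was 1.08 and -0.28, an interaction of -1.36 (SE 0.54), adjusted p = 0.564. For Timp3 it was 0.19 and -0.76, an interaction of -0.94 (SE 0.41), adjusted p = 0.574. The same term compares the day differences of the 2 treatments, so the larger differences of Mmp2 and Timp3 between days in controls than in DSS mice did not pass.

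Ratios within a library do not depend on its depth, and they are given as descriptions. The Mmp2 to Mmp14 ratio, of the target protease to its activator, was 0.040 ± 0.012 in day 7 controls (SD, n = 3), 0.128 ± 0.088 in day 7 DSS mice (SD, n = 4), 0.667 ± 0.325 in day 89 controls (SD, n = 3) and 0.707 ± 0.222 in day 89 DSS mice (SD, n = 4). No day 89 library was below 0.449 and no day 7 library above 0.209. The Mmp2 to Timp2 ratio was 0.046 ± 0.012, 0.117 ± 0.062, 0.387 ± 0.096 and 0.365 ± 0.037 in the same order of groups, and the Mmp14 to Timp2 ratio was 1.17 ± 0.26, 1.16 ± 0.49, 0.623 ± 0.150 and 0.546 ± 0.137. In group means the makeup of the pool thus differed by day. Mmp2 made up 1.69% and 3.99% of the summed FPKM of the 6 proteases in day 7 controls and DSS mice, and 15.1% and 16.9% at day 89. Mmp14 made up 42.5% and 34.2%, then 22.6% and 24.5%. In single libraries the Mmp2 share was at most 6.21% at day 7 and at least 10.6% at day 89. The Mmp14 share overlapped between the days, at 23.8% to 47.5% and 21.3% to 28.7%. Mmp11 was the largest or second share in every group, at 39.7% to 52.6%.

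Among the inhibitors Timp1 made up 70.8 ± 11.7% of the summed FPKM of the 3 genes in day 7 controls, 59.3 ± 20.5% in day 7 DSS mice, 56.7 ± 7.26% in day 89 controls and 39.5 ± 24.5% in day 89 DSS mice. In DSS R29, R78 and R89 the summed inhibitors were 152, 139 and 146 FPKM, and in DSS R38 they were 392 FPKM, while the 3 day 89 controls held 284 to 316 FPKM. Timp3 went from 0.831% and 1.31% of the inhibitor sum at day 7 to 7.10% and 8.10% at day 89. Timp1 is the shortest member (888 bases) and Timp3 the longest (8144 bases). The part of the length difference between the days in these shares was not tested. The ratio of summed proteases to summed inhibitors was 0.782 ± 0.327 in day 7 controls, 1.22 ± 0.32 in day 7 DSS mice, 0.967 ± 0.046 in day 89 controls and 1.11 ± 0.34 in day 89 DSS mice, and its ranges overlapped between all groups.

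**Figure D4:**
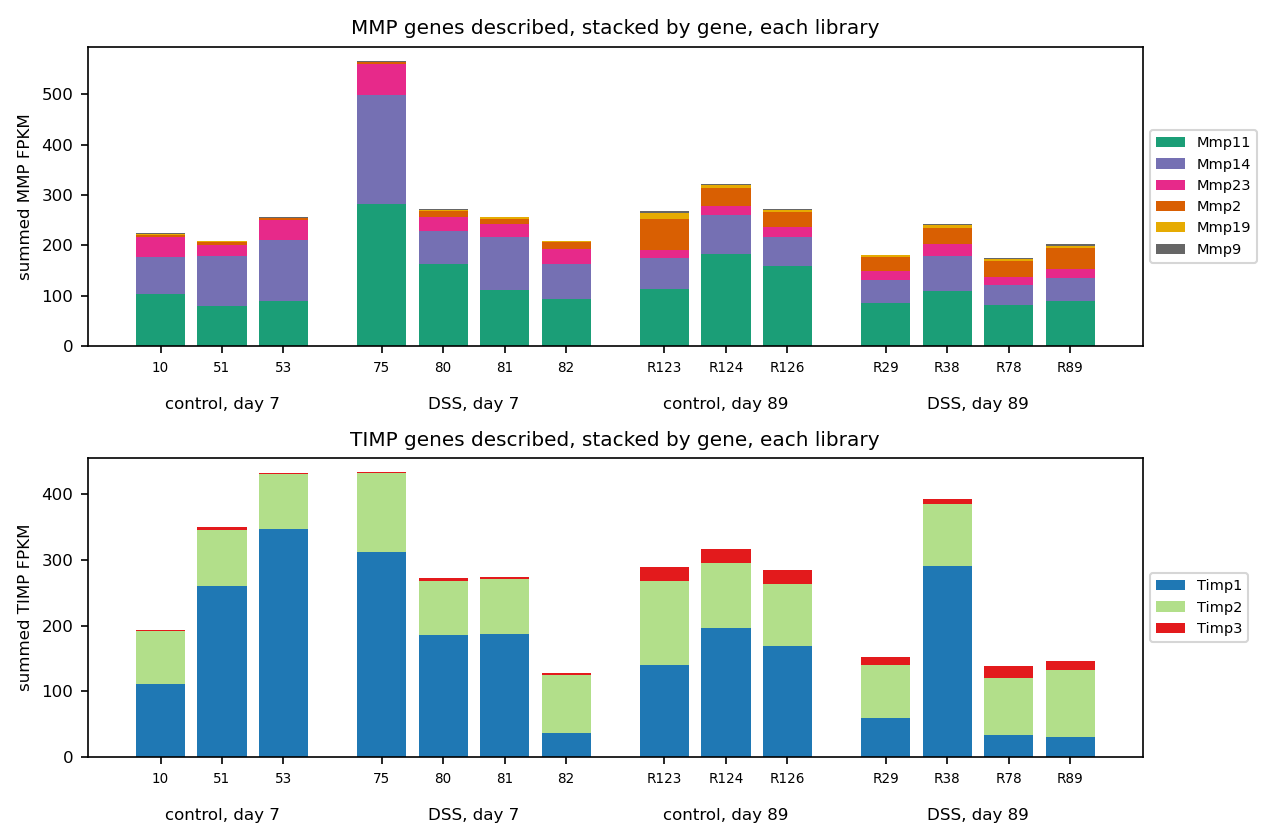
Summed FPKM (bars from 0) of the 6 MMP genes (top) and the 3 TIMP genes (bottom) in each library, stacked by gene and ordered by group. The sum of proteases is highest in DSS 75 (566 FPKM), and the sum of inhibitors in DSS R38 (392 FPKM) stands above the other day 89 DSS libraries (139 to 152 FPKM).

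The rest of the MMP and TIMP family was mostly at or near background: of 18 further genes, 6 passed the low-value filter. In controls 4 of these 6 rose between the days and none fell, where 16.1% of all genes tested rose: Mmp12, the macrophage elastase (1.32, adjusted p = 0.00126), Mmp28 (0.59, adjusted p = 0.0184), Mmp16, a membrane-type MMP (0.49, adjusted p = 0.0227), and Mmp17 (0.53, adjusted p = 0.0470). In DSS mice, where 10.7% of all genes tested rose, 3 did, Mmp12 (1.06, adjusted p = 0.00394), Mmp17 (0.59, adjusted p = 0.0240) and Mmp28 (0.52, adjusted p = 0.0256). Mmp15, the most abundant of them, reached 4.67 to 21.4 FPKM and did not pass. Mmp1a had no read in any of the 14 libraries, and Mmp8, the neutrophil collagenase, reached 0.5 FPKM in DSS 75 alone (0.796 FPKM). None of the 6 passed in either DSS comparison; the smallest p at day 7 belonged to Timp4 (-0.76, adjusted p = 0.255) and Mmp12 (0.48, adjusted p = 0.284), and at day 89 to Mmp15 (-0.54, adjusted p = 0.924) and Mmp12 (0.22, adjusted p = 0.932).

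Genes for activators and regulators of MMPs were described from a list of 23, of which 18 were tested. Between the days 9 of 18 rose in controls and none fell, 50% called against 31.8% of all genes tested (16.1% higher). Among them were Furin, the convertase that activates MMP11 and MMP14 (1.48, adjusted p = 0.000260), Plat, the tissue plasminogen activator (1.77, adjusted p = 0.00102), Lrp1, a receptor that clears protease-inhibitor complexes (1.18, adjusted p = 0.00232), and Reck, a membrane-anchored MMP inhibitor (1.19, adjusted p = 0.00649). In DSS mice 3 of 18 rose and none fell, 16.7% called, beside 21.4% of all genes tested (10.7% higher). These were Reck (1.09, adjusted p = 0.00868), Furin (0.65, adjusted p = 0.0108) and Plau, the urokinase plasminogen activator (1.05, adjusted p = 0.0199). None passed in the DSS comparisons, where the smallest p belonged to Plat (0.92, adjusted p = 0.146) and Furin (0.51, adjusted p = 0.173) at day 7; at day 89 Tfpi2, an inhibitor of plasmin and other serine proteases, differed by -0.49 (adjusted p = 0.924). The list median was 0.65 in controls and 0.23 in DSS mice between the days, beside -0.005 and 0.004 for all genes tested.

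Of the 9 ADAM and ADAMTS proteases that TIMP3 can bind, all were tested, and 5 rose between the days in each treatment while none fell; 16.1% of all genes tested rose in controls and 10.7% in DSS mice. In controls these included Adamts4, an aggrecan- and versican-cutting enzyme (1.80, adjusted p = 0.000257), Adam12 (0.91, adjusted p = 0.00104), Adamts1, which cleaves versican around ovulation (1.42, adjusted p = 0.00512), and Adam17, the shedding enzyme for TNF and EGF-like ligands (0.91, adjusted p = 0.00525). In DSS mice they included Adam19 (1.09, adjusted p = 0.00280), Adamts4 (0.92, adjusted p = 0.00398), Adamts1 (1.48, adjusted p = 0.00402) and Adam12 (0.49, adjusted p = 0.0186). None passed in the DSS comparisons; Adamts1 had the smallest p at day 7 (-0.98, adjusted p = 0.155), followed by Adamts2 (0.79, adjusted p = 0.198), and at day 89 Adamts4 (-0.73) and Adamts1 (-0.92) did, with adjusted p = 0.924 each.

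The matrix proteins that these enzymes cut gave the most calls of the lists, and theirs was also the longest list tested. By share called they led in controls (73.7%) but not in DSS mice, at 52.6% beside 55.6% of the ADAM and ADAMTS list. All 19 matrix genes were tested and 14 rose between the days in controls, where 16.1% of all genes tested rose, none fell, and the median was 1.21. They included Col4a1 (2.05, adjusted p = 0.000181) and Col4a2 (1.76, adjusted p = 0.000260), the main chains of basement membrane collagen and substrates of MMP2, Col5a1 (1.21, adjusted p = 0.000257) and Fn1, fibronectin (1.72, adjusted p = 0.000309). In DSS mice 10 rose, where 10.7% of all genes tested rose, and none fell, with a median of 0.58, among them Col4a1 (0.96, adjusted p = 0.00407), Col5a1 (0.58, adjusted p = 0.00533), Nid1, which links laminin to type IV collagen (0.85, adjusted p = 0.0133), and Vcan, versican (0.90, adjusted p = 0.0150). Several of these genes also stand in the fibroblast and stroma marker list. None passed in the DSS comparisons, with Fn1 (0.70, adjusted p = 0.140) and Col4a2 (0.55, adjusted p = 0.204) of smallest p at day 7 and Col5a1 (-0.58) and Col4a1 (-0.70) at day 89, both with adjusted p = 0.924. At day 89, 16 of the 19 differences between DSS and control were below 0, with a median of -0.44. Of all 18006 genes tested 8825 were below 0, with a median of 0.004. At day 7, 16 of the 19 were above 0, with a median of 0.24, beside 9111 of all genes and a median of 0.004. The matrix genes share the libraries, so these are not separate observations.

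Of 22 transcription factors and signals known to act on MMP and TIMP genes, 15 were tested and 3 (20%) were called between the days in each treatment, against 31.8% of all genes tested in controls and 21.4% in DSS mice. In controls Nfkb1 (0.80, adjusted p = 0.00343) and Tgfb1 (0.68, adjusted p = 0.0425) rose and Jund, an AP-1 subunit, fell (-1.13, adjusted p = 0.0268). In DSS mice Fosl2, another AP-1 subunit (0.94, adjusted p = 0.0191), and Nfkb1 (0.49, adjusted p = 0.0289) rose and Jund fell (-1.03, adjusted p = 0.0305). None passed in the DSS comparisons: at day 7 the smallest p belonged to Fosl2 (-0.76, adjusted p = 0.204) and Tgfb1 (0.51, adjusted p = 0.283), and at day 89 to Ets1 (-0.49) and Fosb (-0.52), both with adjusted p = 0.924. In the interaction no gene of the 5 lists passed.

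The genes whose profile over the 14 libraries was most like each member were found among 11904 genes by the root mean square difference of centred log2(FPKM + 1). For Mmp19 it was Pdgfra, a receptor and marker of stromal fibroblasts, at 0.16, against a spread of 0.74 for Mmp19 itself, followed by Itm2a at 0.20. Timp3 was nearest to Zbed6 (0.24) and Ston1 (0.25), with its own spread at 1.17. Mmp2 had Pcdhgc3 (0.38) and Arhgef11 (0.41) nearest, with a spread of 1.33. Mmp14 was nearest to Wwp2 (0.15) and Cldn5 (0.26), beside a spread of 0.62, Mmp23 to Lmbr1l and Clpp (0.14 each, spread 0.55), and Mmp11 to Porcn (0.29) and Mdfi (0.30), beside a spread of 0.51. Timp1 was nearest to Cryba4 (0.57) and Cdkn1a (0.63), beside a spread of 1.18. For Mmp9 the nearest were Mxd4 and Hip1 (0.16 each, spread 0.35), and for Timp2 Clmp and Mturn (0.13 each, spread 0.20), the smallest spread of the members. All of these profiles share the libraries, their depth and their group structure.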

How the data were processed

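Per the labels' protocols, RNA was extracted with Trizol and libraries were made with an Illumina TruSeq kit. Reads were aligned with HISAT2 2.0.5 to GRCm38, per the submitters' processing notes; no source used here names the counter, its annotation or its use of strand. The authors deposited 1 table of FPKM per gene and library, with gene lengths. Low FPKM values were whole multiples of the value of 1 read (within 0.01 of a step, 100% of values under 300 steps), which gave recovered read numbers; their total per library sets the depth. FPKM ratios between libraries also depend on the deposited totals, which were 0.852 to 1.07 times the recovered ones.

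Differences were tested with limma 3.58.1 (trend, R 4.3.3) on log2(FPKM + 1), which understates changes of low genes, over the 18006 genes with at least 0.5 FPKM in at least 3 libraries, with 1 mean per group over all 14 libraries, and Benjamini-Hochberg adjustment over all genes tested in each of 5 comparisons (threshold 0.05). Alternatives were a pseudocount of 0.1, no filter, only the groups compared, recovered reads with TMM factors and voom, median-of-ratios scaling, a term for high mitochondrial share (above 5% of reads), removal of those 3 libraries, removal of the length trend, and each library left out. Leaving out both DSS 75 and DSS R38, and the differences within mitochondrial classes, were chosen after seeing the data. The voom fit on recovered reads called 0 genes in each DSS comparison and the interaction, 5662 by day in controls and 3767 by day in DSS mice. The script was tested on simulated data. The members and gene lists were chosen with earlier results of these data known. All 9 members are named; of each other list and comparison, the called genes (at most 4, by smallest p) or, with none, the 2 of smallest p; and the 2 genes most like each member. One gene that this rule names is not reported here. Tmem198b, Syn3, Chchd10 and Syn1 were named after their values were seen. Deposited gene positions were the same as in GENCODE M21 for 1472 of 52073 matched IDs, so positions are from GENCODE M21.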

Additional observations from a re-analysis of the deposited data

Results flagged for a closer look

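In 4 cases the highest library of a group of 4 lay far from the other 3 (gap over range above Dixon's value of 0.829). The 20 sets of values looked at all came from the same DSS libraries of day 7 and day 89. Chance alone gives such a case in about 5% of independent sets of normally distributed values. These sets share their libraries, and all 4 cases fall in DSS 75 or DSS R38. The cases are therefore not separate observations, and no excess over chance can be read from them. Mmp14 was 69.4 FPKM in DSS R38 at day 89, where the other 3 libraries were at 40.2 to 44.7. Timp1 was 291 FPKM in the same library, beside 29.8 to 58.8 in the others. Mmp23 was 62.1 FPKM in DSS 75 at day 7, beside 25.1 to 30.2. Timp2 was 119 FPKM in DSS 75, beside 83.5 to 88.1. Both libraries also stand apart in the measures given above, DSS 75 in its mitochondrial share of 14.2% and summed neutrophil markers of 133 FPKM, and DSS R38 in its length measure of 0.107; their part in these values was not tested.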

How the results depend on the processing

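No paired analysis was possible because the groups compared share no replicate numbers. Over the 23 other settings (22 for the interaction) no called difference changed direction. The rises of Mmp2 and Timp3 between the days passed in all of them in both treatments, and that of Mmp19 in 23 in controls and 22 in DSS mice. At day 7, DSS against control, the number of members called went from 0 to 1 (Mmp2) without both DSS 75 and DSS R38, and lay between 0 and 1 with each library left out in turn (1 without DSS 75). For day 89 against day 7 in controls it went from 5 to 3 without the 3 libraries of high mitochondrial share, where control 51 is the only day 7 control and the other groups supply the spread, and ranged from 3 to 6 with each library left out (3 without control 53 or control R123). In DSS mice it went from 5 to 3 with no filter and to 3 with only the groups compared, and ranged from 3 to 6 with each library left out (3 without DSS 75, R29, R78 or R89). With no filter more genes are tested and with fewer groups fewer libraries enter the spread; for the other changes the cause was not tested. Depth limits Mmp9 and Mmp19 most, with 42 and 40 reads behind their lowest values.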
